A study of Mus musculus with 19 samples.

Results

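The VEGF and angiopoietin systems are the paired sets of secreted ligands and endothelial receptor tyrosine kinases that govern the growth and the stability of blood and lymphatic vessels. Here 10 genes were followed, out of 27998 genes in the count tables. They were taken by name as the core ligands Vegfa, Vegfb, Vegfc and Pgf with their receptors Kdr, Flt1 and Flt4, and as the angiopoietins Angpt1 and Angpt2 with their receptor Tek.

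VEGF-A, secreted by tissue cells that are short of oxygen and by inflammatory cells, drives endothelial division, sprouting and permeability through Kdr, while Flt1 binds VEGF-A, VEGF-B and placental growth factor and holds much of the ligand away from Kdr. VEGF-C signals through Flt4, the receptor best known from lymphatic vessels, and also through Kdr. Angpt1, made by the cells around vessels, activates Tek and keeps vessels quiet, whereas Angpt2, made by endothelium that is being remodelled, mostly opposes it.

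The study followed trauma-induced heterotopic ossification, the formation of bone within soft tissue, in mice that received a scald burn over 30% of the body surface of the back together with a cut through the Achilles tendon. Cells of the tendon cut were dissociated with collagenase and dispase, and their transcripts were counted by droplet single-cell RNA sequencing. The 19 libraries fall into 5 groups, with 4 for day 0, 3 for day 3, 4 for day 7 and 4 for day 21 after injury, and 4 from mice treated with p7N3, a peptide that activates CD47 and was injected intraperitoneally at 10 mg per kg daily for 3 days before and 3 days after injury. The p7N3 libraries were harvested at day 7, except that the label of replicate 4 gives no day. All groups, day 0 included, carry the burn treatment in their labels, although the study's methods describe day 0 as uninjured, and the day 7 libraries carry no vehicle label. The labels name both C57 and LysmCre/Tgfb1fx/fx mice, in which Cre under the lysozyme M promoter of myeloid cells removes Tgfb1, without saying which libraries came from which, so genotype was not a term in any comparison. The labels give no age, and they do not say that the libraries of a group came from separate animals, so p-values measure the spread between libraries, which may be partly technical.

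A barcode counted as a cell if it held 500 genes or more and if mitochondrial transcripts made up no more than 25% of it, which left 39541 cells. Day 0 was by far the shallowest group, with 3019467 to 5383855 transcript molecules (unique molecular identifiers, UMIs) per library against 11064153 to 39870492 in the other groups, so that low values at day 0 are the least precise. Cells were clustered without the 10 genes and their pathway partners and named from marker genes. Endothelial-like cells carried all 8 of their markers, among them Pecam1, Cdh5 and Emcn, at a summed level of 6517 to 8896 CPM in every group. They made up 28.7% of cells at day 0, 1.43% at day 3, 4.36% at day 7, 12.7% at day 21 and 4.89% in the p7N3 group (means over libraries). Monocyte/macrophage-like cells went the other way, with 10.9%, 65.7%, 36.9%, 13.3% and 41.1% in the same order, and stromal-like cells held 31.3%, 13.6%, 25.7%, 30.4% and 25.3%. The day 3 libraries held only 27, 28 and 27 endothelial-like cells, against 200 to 275 in the day 0 libraries. All endothelial-like values at day 3 thus rest on few cells. Pairs of libraries shared at most 22 cell barcodes, against 14.4 by chance for that pair. CPM stands for counts per 1e6, the UMIs of a gene scaled by the UMIs of all cells of a library or of 1 cell type of a library, and levels are compared within a gene only. All comparisons with day 0 share the same day 0 libraries.

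All 4 receptors fell in the endothelial-like cells at each day after injury. The 250 bases upstream of the transcription starts of Flt1 and Kdr, the receptors of VEGF-A, and of Tek, the receptor of the angiopoietins, are shown beside those values, written 5′ to 3′ on the gene's strand with GGAA, the core letters recognised by ETS-family factors, or TTCC, its complement, in capitals. The windows come from RefSeq on GRCm38.p6 and lie at chr5:147726012-147726261 on the minus strand for Flt1, at chr5:75978456-75978705 on the minus strand for Kdr and at chr4:94739039-94739288 on the plus strand for Tek.
Flt1: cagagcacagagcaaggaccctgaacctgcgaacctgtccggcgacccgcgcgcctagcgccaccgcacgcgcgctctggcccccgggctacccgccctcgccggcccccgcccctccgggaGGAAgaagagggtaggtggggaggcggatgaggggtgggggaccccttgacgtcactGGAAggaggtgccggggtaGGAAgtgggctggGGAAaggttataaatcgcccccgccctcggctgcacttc
Kdr: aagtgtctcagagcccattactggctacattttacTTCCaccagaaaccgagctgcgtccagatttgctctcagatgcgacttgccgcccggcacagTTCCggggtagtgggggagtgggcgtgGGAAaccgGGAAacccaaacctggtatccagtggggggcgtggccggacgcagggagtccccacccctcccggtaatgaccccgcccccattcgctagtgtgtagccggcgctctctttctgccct
Tek: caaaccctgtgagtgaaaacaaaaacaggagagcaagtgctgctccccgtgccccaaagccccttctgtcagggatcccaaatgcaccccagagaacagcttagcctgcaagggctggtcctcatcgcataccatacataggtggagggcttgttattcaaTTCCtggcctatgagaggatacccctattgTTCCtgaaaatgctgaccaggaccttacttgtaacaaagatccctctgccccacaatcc
The Flt1 and Kdr windows hold 4 matches each and the Tek window holds 2, counted on both strands. The same 4 letters occur on either strand in 93.4% of 32851 RefSeq windows of the same length, with a median of 3 matches, so their presence does not set these windows apart. ACGTG, a form of the core of the hypoxia response element, occurs in 16.6% of windows. It is absent from all 3 windows and from the other member windows, except for 1 match in the second of the Vegfa windows. The other form of that core, GCGTG, was not counted. GCGTG or its complement CACGC can be read in the Kdr and Flt1 windows shown. Windows were held for 8 of the 10 genes and not for Angpt1 or Angpt2. No binding was measured, and a match or its absence is a description of the letters only.

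Over the whole site, with all cells of a library summed, the 4 receptors had larger falls after injury than any of the 6 ligands. Of the 10 genes tested, 7 were called lower at day 3 against day 0 (edgeR quasi-likelihood test, Benjamini-Hochberg adjusted p below 0.05) and none higher, where 74.6% of all 12784 genes tested were called and 37.3% were called lower. At day 7, 6 of the 10 were called and all were lower, against 63.5% of all genes called and 31.4% called lower. At day 21, 6 of the 10 were called, 2 higher and 4 lower, where 51.8% of all genes were called. The median log2 fold change of the 10 genes was −1.10 at day 3, −0.79 at day 7 and −0.42 at day 21, while the medians of all genes tested stood at −0.00, 0.00 and −0.02. In a sum over all cells, fewer cells of a type and less RNA per cell cannot be told apart.

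Flt1 stood at 353, 547, 348 and 387 CPM in the 4 day 0 libraries and at 13.3, 12.7 and 18.8 CPM in the 3 day 3 libraries. It reached 32.1, 16.3, 18.4 and 16.9 CPM at day 7 and 74.3, 102, 93.2 and 47.9 CPM at day 21. No injured library overlapped with day 0, and the log2 fold changes were −4.42 (SE 0.21, adjusted p = 3.41e-07) at day 3, −4.10 (SE 0.25, adjusted p = 1.09e-06) at day 7 and −2.22 (SE 0.21, adjusted p = 4.69e-05) at day 21.

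Kdr went from 124, 250, 187 and 227 CPM at day 0 to 10.7, 7.00 and 9.51 CPM at day 3 and was at 40.3, 62.5, 62.9 and 28.2 CPM at day 21. Its groups did not overlap with day 0 at any day, and its log2 fold change was −4.08 at day 3, −2.74 at day 7 and −1.88 at day 21. Tek went from 98.3, 115, 104 and 131 CPM at day 0 to 4.13, 5.01 and 4.83 CPM at day 3, again without overlap, a log2 fold change of −4.23 (SE 0.13, adjusted p = 9.54e-08), and stayed lower by 2.63 and 1.77 on the log2 scale at days 7 and 21. Flt4, at 8.92, 28.2, 21.3 and 33.1 CPM at day 0, fell by 2.57 at day 3 and by 1.81 at day 7 and did not pass at day 21 (log2 fold change −0.89, adjusted p = 0.0733), when 3 of the 4 day 21 libraries lay within the day 0 range. The whole-site changes of these receptors moved with the endothelial-like share of cells given above, from 28.7% at day 0 to 1.43% at day 3. Other cells also held Tek and Flt4. Pooled over libraries, stromal-like Tek was 95.1 CPM at day 0 and 2.99 CPM at day 3. Over the libraries of all groups, Flt4 had a mean of 395 CPM in lymphatic endothelial-like and 24.5 CPM in endothelial-like cells. The values within endothelial-like cells are given further below.

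**Figure D1:**
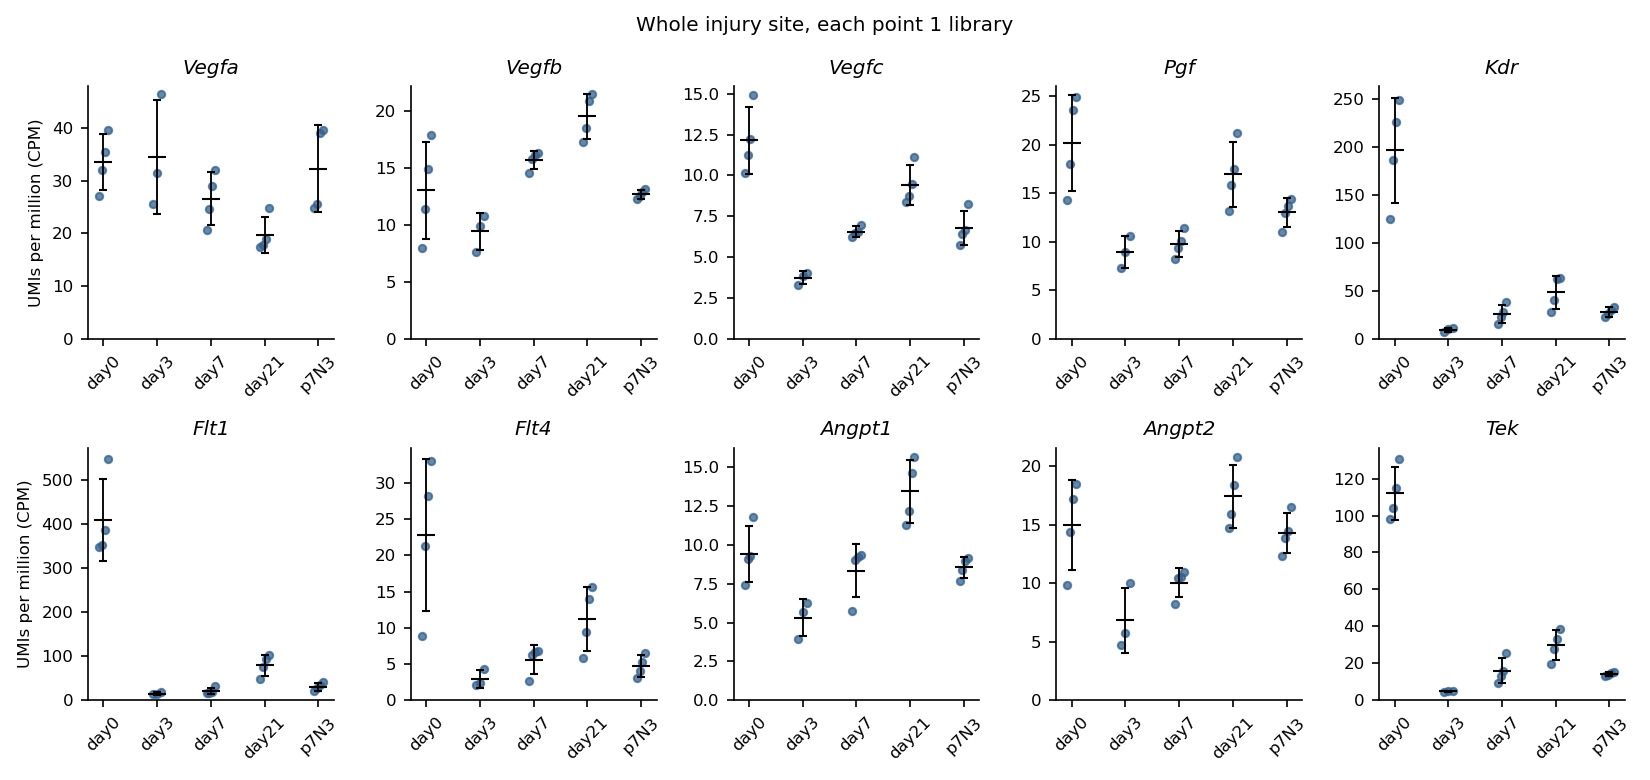
CPM of each of the 10 genes over all cells of a library (linear axis from 0, points are libraries, black dashes and bars are group means ± SD), by group. Flt1, Kdr and Tek were lower in every library of day 3, day 7 and day 21 than in every day 0 library, whereas the day 3 and day 7 libraries of Vegfa overlapped with day 0.

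Of the ligands, Vegfa stood at 35.5, 27.2, 39.7 and 32.1 CPM at day 0 and at 31.4, 25.6 and 46.5 CPM at day 3, with a log2 fold change of 0.37 (SE 0.21, adjusted p = 0.141). At day 7 it was −0.16 (adjusted p = 0.4). It was lower at day 21, at 17.4, 17.8, 24.8 and 19 CPM, a fall of 0.63 on the log2 scale (SE 0.15, adjusted p = 0.00578) with no overlap with day 0. Vegfc, at 10.2 to 14.9 CPM at day 0 and 3.29 to 4.04 CPM at day 3, fell by 1.34 at day 3 and by 0.69 at day 7, and did not pass at day 21 (−0.21, adjusted p = 0.224). Pgf fell by 0.86 at day 3 and by 0.89 at day 7 and did not pass at day 21 (−0.11, adjusted p = 0.685).

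Vegfb, a VEGF homolog that binds Flt1, passed at day 21 only, where it rose by 0.69 on the log2 scale (SE 0.20, adjusted p = 0.0134), with log2 fold changes of −0.16 (adjusted p = 0.567) at day 3 and 0.42 (adjusted p = 0.082) at day 7. Angpt1 rose by 0.69 at day 21 (SE 0.18, adjusted p = 0.00902) and did not pass at day 3, when its log2 fold change was −0.48 (adjusted p = 0.069), or at day 7 (0.01, adjusted p = 0.975). Angpt2 was at 9.84, 17.2, 14.4 and 18.4 CPM at day 0 and at 5.77, 4.72 and 9.98 CPM at day 3, overlapping in 1 library of each group, and was called lower at day 3 with a log2 fold change of −0.77 (SE 0.30, adjusted p = 0.0392). That call was lost when any of 5 libraries was left out, day 0 replicates 2, 3 and 4 and day 3 replicates 1 and 2. It did not pass at day 7 (−0.37, adjusted p = 0.0886) or day 21 (0.39, adjusted p = 0.0907).

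Which cells held the ligands and which the receptors was compared within libraries, over all 19 libraries and with the library as a block. All 10 genes were called between endothelial-like and stromal-like cells, 7 higher and 3 lower in the endothelial-like cells, where 75.9% of all genes tested were called. Flt1 was higher in endothelial-like cells by 7.46 on the log2 scale (SE 0.18, adjusted p = 2.09e-20), Kdr by 7.33 (SE 0.17, adjusted p = 1.41e-20), Flt4 by 4.28 and Tek by 2.70. Among the ligands, Angpt2 was higher in endothelial-like cells by 4.42 (SE 0.34, adjusted p = 5.14e-11) and Vegfc by 0.88, whereas Angpt1 was lower by 5.16 (SE 0.24, adjusted p = 2.7e-15), Vegfa by 2.70 and Vegfb by 1.28. Pgf was higher in endothelial-like cells by 1.3 over all libraries (adjusted p = 0.0125), but in the day 0 libraries alone it was lower by 2.47.

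Against monocyte/macrophage-like cells, all 8 genes tested were called, 6 higher and 2 lower in endothelial-like cells, with 78.3% of all genes called. The receptors were higher there, Flt1 by 7.15, Kdr by 6.38, Tek by 6.29 and Flt4 by 4.58 on the log2 scale. Of the ligands, Angpt2 was higher by 4.30 and Pgf by 2.83, and Vegfa was lower by 2.75 and Vegfb by 0.74. Between stromal-like and monocyte/macrophage-like cells 7 of 9 genes were called, 5 higher and 2 lower in the stromal-like cells, with 81.9% of all genes called. Angpt1 was higher in stromal-like cells by 4.76 (SE 0.15, adjusted p = 3.6e-19), Vegfc by 3.61, Tek by 3.19, Pgf by 0.82 (adjusted p = 0.0314) and Vegfb by 0.49, whereas Kdr was lower by 1.11 and Flt1 by 0.39 (adjusted p = 0.0498). The Flt1 call was lost under most alternatives, among them DESeq2 (adjusted p = 0.104) and edgeR without the library block (0.801). That of Pgf was lost with at most 10% mitochondrial UMIs (edgeR adjusted p = 0.225) and at a Leiden resolution of 2 (0.0579). Angpt2 did not pass (−0.57, adjusted p = 0.104). Vegfa did not pass between these types over all libraries (log2 difference −0.29, adjusted p = 0.28), yet in the day 0 libraries alone it was higher in stromal-like cells by 3.42 and in the day 7 libraries alone it was lower there (log2 difference −0.80, adjusted p = 0.000113).

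**Figure D2:**
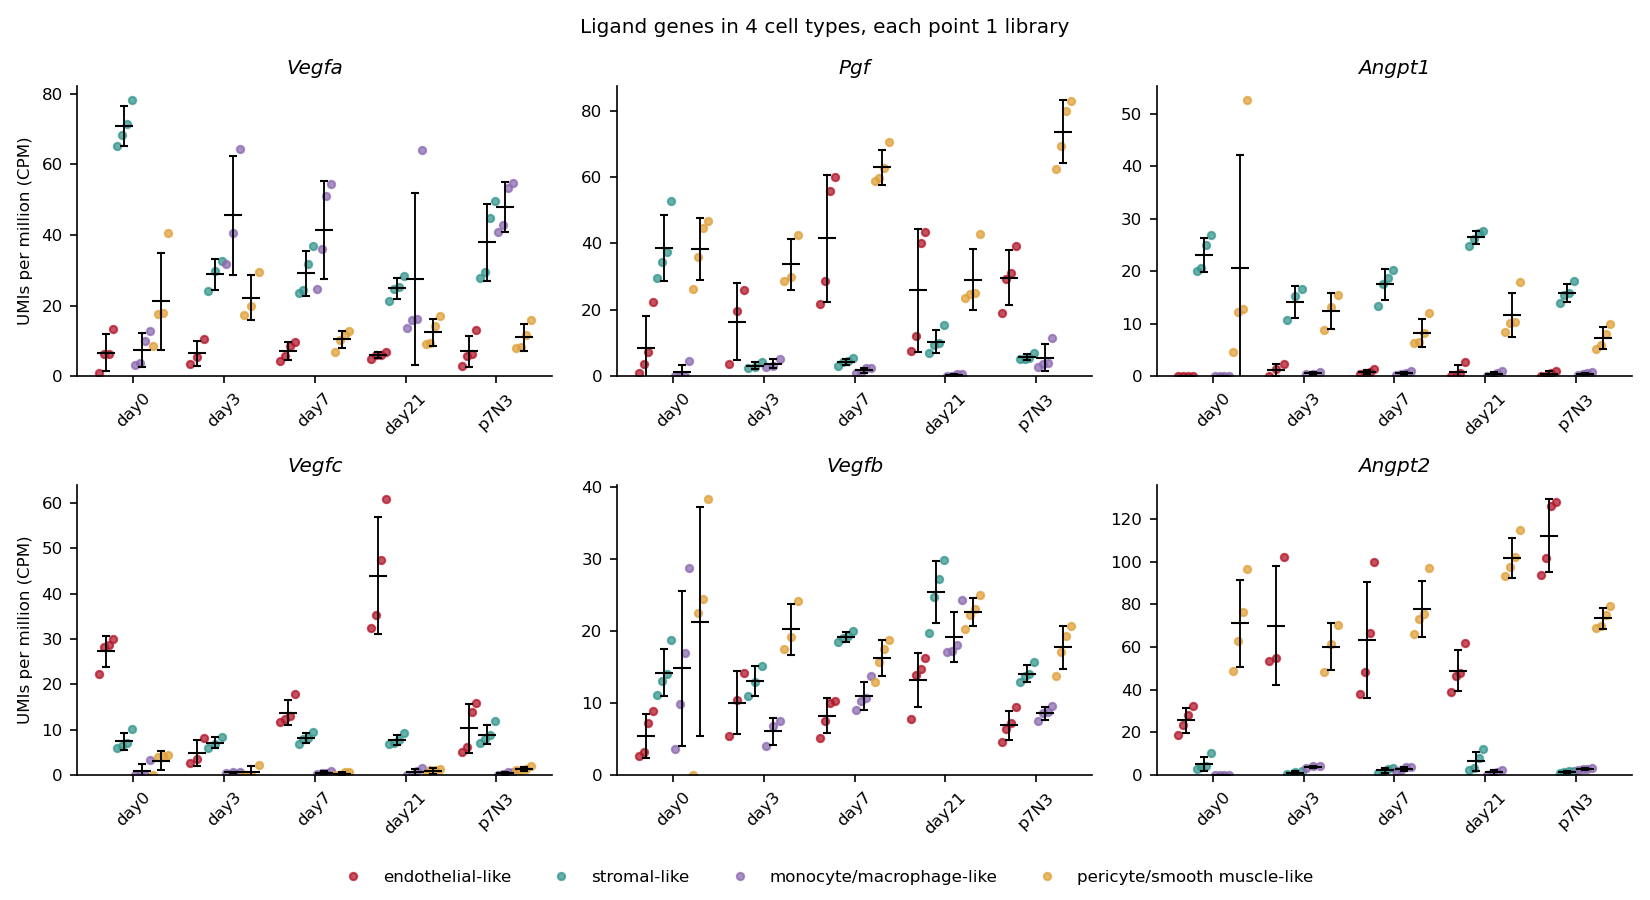
CPM of the 6 ligand genes in endothelial-like, stromal-like, monocyte/macrophage-like and pericyte/smooth muscle-like cells by group (linear axis from 0, points are libraries, black dashes and bars are means ± SD). Vegfa in stromal-like cells is at 65.2 to 78.4 CPM at day 0 and at 21.2 to 36.9 CPM at days 3, 7 and 21, and Vegfa in monocyte/macrophage-like cells is lowest at day 0.

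Vegfa, the ligand of Kdr and Flt1, was called in opposite directions in stromal-like and monocyte/macrophage-like cells. In stromal-like cells it stood at 71.6, 65.2, 68.3 and 78.4 CPM at day 0, at 29.7, 24.2 and 32.7 CPM at day 3, at 36.9, 23.5, 31.8 and 24.5 CPM at day 7 and at 28.3, 24.6, 21.2 and 25.4 CPM at day 21. Every injured library lay below every day 0 library. The fall was 1.22 at day 3 (SE 0.13, adjusted p = 2.32e-06), 1.26 at day 7 (SE 0.15, adjusted p = 9.92e-06) and 1.45 at day 21 (SE 0.11, adjusted p = 1.34e-06) on the log2 scale. In monocyte/macrophage-like cells the day 0 libraries held 3.08, 3.64, 9.91 and 12.8 CPM, from only 1 to 4 UMIs each, against 40.7, 31.9 and 64.5 CPM at day 3 and 51.0, 24.6, 36.0 and 54.6 CPM at day 7. Vegfa rose there by 2.88 at day 3 (SE 0.60, adjusted p = 0.00138) and by 2.88 at day 7 (SE 0.49, adjusted p = 0.000207), again without overlap. In these cells Vegfa passed the filter on low counts through the injured libraries, where it was high. The filter thus helped to pick this rise. Granulocyte markers, 5 of 5 with UMIs, summed to 16.5 to 67.8 CPM in monocyte/macrophage-like cells at day 0, 1788 to 2657 CPM at day 3 and 185 to 497 CPM at day 7. In stromal-like cells they summed to 4.88 to 20.5 CPM at day 0 and 1407 to 2382 CPM at day 3. Vegfa in granulocyte-like cells themselves was at 16.8 to 46.1 CPM at day 3. The part of these transcripts in the changes of Vegfa was not tested.

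At day 21 the monocyte/macrophage-like level of Vegfa was 13.7, 16.2, 64.0 and 16.0 CPM, with replicate 3 far above the other libraries. The log2 fold change of 2.10 against day 0 (adjusted p = 0.0388) was lost when any 1 of the 4 day 0 libraries was left out, with adjusted p from 0.0546 to 0.162, and Vegfa failed the filter on low counts without day 21 replicate 2, 3 or 4. The difference between the changes of the 2 cell types at day 3 was tested as an interaction, which does not itself test their directions. For Vegfa the change in stromal-like cells was 4.35 lower on the log2 scale than that in monocyte/macrophage-like cells (SE 0.34, adjusted p = 1.01e-12). That SE is smaller than the SE of the monocyte/macrophage-like change alone, which rests on few UMIs per day 0 library, so it may understate the error. Of the 8 genes tested in that interaction 3 were called, all lower, where 31.3% of all genes were called and 19.1% were called lower. The others were Pgf at −4.93 (SE 0.63, adjusted p = 7.35e-08) and Tek at −2.24 (SE 0.50, adjusted p = 0.000588). Vegfb (0.85), Vegfc (−0.20), Kdr (0.41), Flt1 (0.06) and Angpt1 (−5.32, SE 3.29) did not pass, with adjusted p from 0.125 to 0.961. In monocyte/macrophage-like cells Pgf was low, at 0 to 4.62 CPM at day 0 and 2.82 to 5.28 CPM at day 3, overlapping. Tek fell in both cell types, in monocyte/macrophage-like cells from 3.64 to 9.24 CPM at day 0 to 0.705 to 0.989 CPM at day 3. Neither gene was tested in that type alone at day 3, so no opposite directions are shown for them.

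The same shift is seen in the share of all Vegfa UMIs of a library that fell in each cell type, which is a description without a test. Stromal-like cells held 74.1% of Vegfa UMIs at day 0 (SD 8.2, n = 4), against 35.4% of all UMIs, and 28.0% at day 3 (SD 6.7, n = 3). Monocyte/macrophage-like cells held 61.7% at day 3 (SD 5.8), where they held 47.1% of all UMIs, then 31.9% at day 7 and 11.9% at day 21. Tenocyte-like cells held 24.0% at day 7, and a cluster led by Col2a1, the collagen of cartilage, held 23.7% at day 21. Here and in the shares given below, a percentage without the share of all UMIs beside it does not show that the cells were rich in the gene.

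The cell types are mixtures, and the clusters that make them up changed with the day. Monocyte/macrophage-like cells at day 0 were mainly cluster 9, led by Cd209f and Cd163, with 310 cells, and Vegfa in that cluster stayed low, at 3.54 CPM pooled over day 0, 5.39 at day 3, 9.79 at day 7 and 2.31 at day 21. Cluster 3, led by Mmp12, Gpnmb, Arg1 and Spp1, had 1 cell at day 0, 301 at day 3 and 1110 at day 7, and held Vegfa at 138 CPM at day 3, 92.3 at day 7, 101 at day 21 and 93.6 in the p7N3 group. Within cluster 9 no member passed the filter on low counts, so the rise of Vegfa could not be tested in cells of 1 cluster. Among stromal-like cells, cluster 15, led by Cfd, Has1 and Adipoq, held Vegfa at 140 CPM at day 0, 65.6 at day 7 and 78.7 at day 21. In cluster 13 alone, led by Myoc, Clec3b and Pcolce2, the log2 fold change of Vegfa was −0.76 at day 21 (adjusted p = 0.0396) and −0.45 at day 7 (adjusted p = 0.344), where 4.75% and 13.6% of all genes tested in that cluster were called at these 2 days.

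Pgf, placental growth factor, which binds Flt1 but not Kdr or Flt4, showed the steepest ligand change in stromal-like cells. It was at 52.9, 34.5, 37.4 and 29.6 CPM at day 0 and at 4.25, 2.39 and 2.68 CPM at day 3, and at day 7 it was at 5.31, 4.57, 4.25 and 2.92 CPM. The groups were well apart, and Pgf fell by 3.58 at day 3 (SE 0.25, adjusted p = 3.12e-08), by 3.19 at day 7 (SE 0.21, adjusted p = 4.33e-08) and by 1.95 at day 21 (SE 0.23, adjusted p = 3.02e-05). At day 0 Pgf sat in cluster 13, at 53.5 CPM, rather than in cluster 15, at 5.42 CPM. Cluster 13 held 832 of the stromal-like cells at day 0 and 3 at day 3, when the Prg4-led cluster 17 held 749 and its Pgf was 2.69 CPM. Within cluster 13, Pgf fell by 1.75 at day 7 (SE 0.40, adjusted p = 0.00629), with 133 cells, and did not pass at day 21 (log2 fold change −0.27, adjusted p = 0.611).

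After injury Pgf was found in other cells. At day 3, 33.4% of its UMIs (SD 8.2, n = 3) lay in a cluster led by the osteoclast genes Acp5, Mmp9 and Ctsk, which held 5.48% of all UMIs. That cluster was left without a name by the limits on naming and made up 0.261% of cells at day 0, 3.63% at day 3, 1.04% at day 7, 0.323% at day 21 and 1.40% in the p7N3 group. At day 7, 26.4% of Pgf UMIs (SD 2.9, n = 4) lay in pericyte/smooth muscle-like cells, where the level was 59.8, 70.5, 62.8 and 58.8 CPM, above the 26.3 to 46.8 CPM of day 0 in every library. The Myh11-led cluster 19 of that type held Pgf at 45.3 CPM at day 0 and 128 CPM at day 7. In endothelial-like cells Pgf was at 3.54, 1.04, 22.3 and 7.16 CPM at day 0 and at 21.6, 55.9, 28.6 and 59.9 CPM at day 7, overlapping in 1 library of each group, and rose by 2.29 on the log2 scale (SE 0.49, adjusted p = 0.000775). At days 3 and 21 it did not pass there (log2 fold changes 1.10 and 1.66, adjusted p = 0.185 and 0.0799). Endothelial-like Pgf was low in most day 0 libraries, and at day 7 it passed the filter on low counts mainly through the day 7 libraries.

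**Figure D3:**
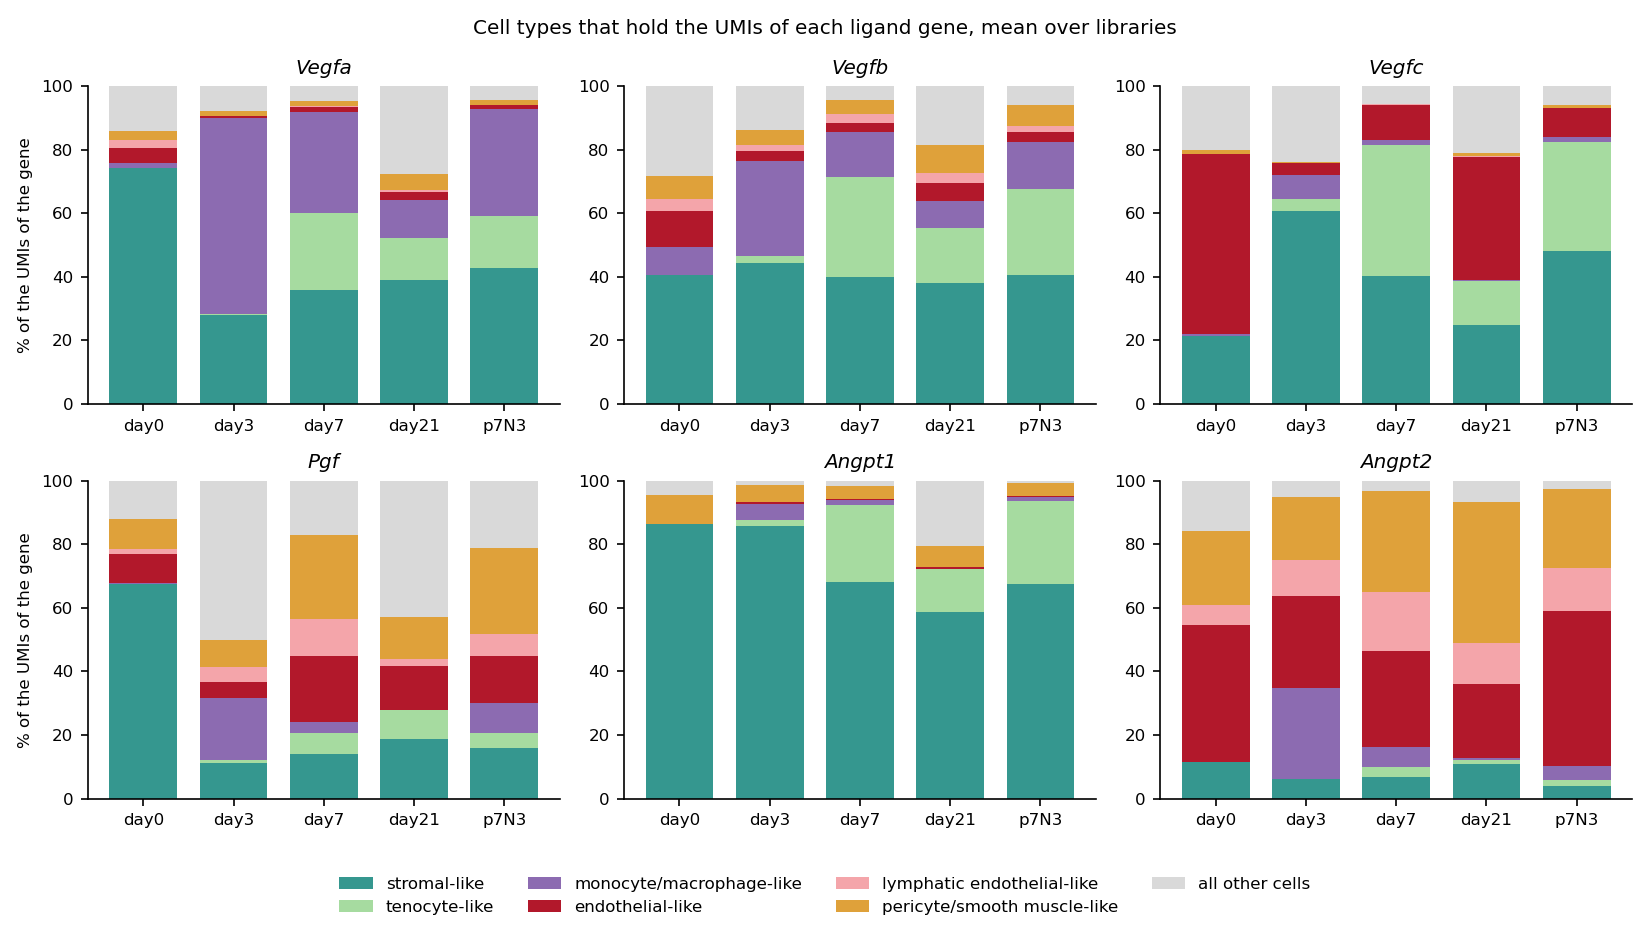
Percentage of the UMIs of each ligand gene that fell in each cell type, as the mean over the libraries of a group (stacked bars from 0 to 100%). Stromal-like cells hold 74.1% of Vegfa UMIs at day 0 and 28.0% at day 3, and 67.4% of Pgf UMIs at day 0 and 11.3% at day 3.

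Vegfc, a ligand of Flt4, was called in both directions in endothelial-like cells, depending on the day. Figf, the gene of VEGF-D, another ligand of Flt4, was lower in endothelial-like than in stromal-like cells over all libraries. Its means were 2.04 and 65.6 CPM after scaling by library factors (log2 difference −5.04, edgeR adjusted p = 1.17e-18). In endothelial-like cells the levels of Vegfc were as follows. Vegfc was at 30.1, 28.2, 22.3 and 28.6 CPM at day 0, at 3.56, 2.74 and 8.13 CPM at day 3 and at 12.4, 13, 17.8 and 11.7 CPM at day 7. At day 21 it was at 35.3, 32.4, 60.9 and 47.4 CPM. The groups of days 3 and 7 lay below day 0 and the group of day 21 lay above it, none overlapping. Vegfc fell by 2.34 at day 3 (SE 0.35, adjusted p = 6.6e-05) and by 1.00 at day 7 (SE 0.20, adjusted p = 0.000408) and rose by 0.72 at day 21 (SE 0.21, adjusted p = 0.0211). The call at day 21 was lost without day 0 replicate 3, day 21 replicate 3 or day 21 replicate 4. In stromal-like cells Vegfc did not pass at any day, with log2 fold changes of 0.08, 0.23 and 0.16. Endothelial-like cells held 56.5% of Vegfc UMIs at day 0 (SD 9.5), 3.76% at day 3, 11.1% at day 7 and 38.5% at day 21, while stromal-like cells held 60.8% at day 3 and tenocyte-like cells 41.2% at day 7.

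Vegfb was low and spread over many types. In stromal-like cells it was at 18.7, 14.1, 13 and 11.1 CPM at day 0, at 19.3, 18.4, 19 and 20 CPM at day 7 and at 19.7, 29.8, 27.3 and 24.7 CPM at day 21. The day 21 group lay above day 0 and the day 7 group overlapped with it. It did not pass at day 3 (−0.06, adjusted p = 0.803). Vegfb rose by 0.82 at day 21 (SE 0.19, adjusted p = 0.00451) and by 0.42 at day 7 (SE 0.16, adjusted p = 0.0392), the latter lost without any of 6 libraries, day 0 replicates 2, 3 and 4 and day 7 replicates 1, 3 and 4. In endothelial-like cells it rose by 1.29 at day 21 (SE 0.38, adjusted p = 0.0233), a call lost without day 0 replicate 1 or 2. The levels there were low and overlapped, at 2.65 to 8.91 CPM at day 0 and 7.78 to 16.2 CPM at day 21. At days 3 and 7 Vegfb was too low in these cells for the filter on low counts. In the comparison of day 21 it passed that filter mainly through the day 21 libraries, where it was high. In monocyte/macrophage-like cells it did not pass at day 7 (−0.29, adjusted p = 0.589) or day 21 (0.39, adjusted p = 0.46).

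Angpt1, the ligand that activates Tek, had most of its UMIs in stromal-like cells in each group. These cells held 86.3% of its UMIs at day 0 (SD 7.7), 85.7% at day 3, 68.3% at day 7, 58.8% at day 21 and 67.4% in the p7N3 group. Its mean over the libraries of all groups was 19.7 CPM in stromal-like and 12.0 CPM in pericyte/smooth muscle-like cells. It was 9.65 CPM in tenocyte-like cells and 8.48 CPM in the Col2a1-led cluster. Its stromal-like level was 20.1, 26.9, 24.9 and 20.7 CPM at day 0, 10.7, 15.2 and 16.6 CPM at day 3 and 26.1, 24.9, 27.3 and 27.6 CPM at day 21. The day 3 libraries were all below the day 0 libraries, and Angpt1 fell by 0.59 at day 3 (SE 0.19, adjusted p = 0.0139), a call lost without day 0 replicate 3 or day 3 replicate 1. It did not pass at day 7 (−0.35, adjusted p = 0.0944) or day 21 (0.28, adjusted p = 0.118). In endothelial-like cells no Angpt1 UMI was counted in any of the 4 day 0 libraries, where 3 UMIs would have been 2.65 to 3.34 CPM, a limit that covers counting error only.

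Angpt2, which mostly counters Angpt1 at Tek, had its highest mean levels over libraries in lymphatic endothelial-like (156 CPM), pericyte/smooth muscle-like (77.8 CPM) and endothelial-like cells (63.7 CPM). In endothelial-like cells it was at 18.6, 28.2, 23.4 and 32.2 CPM at day 0 and at 53.3, 54.7 and 102 CPM at day 3. It was at 38.0, 66.8, 48.4 and 99.9 CPM at day 7 and at 47.9, 46.6, 39.1 and 62.1 CPM at day 21. Every injured library lay above every day 0 library. Angpt2 rose by 1.58 at day 3 (SE 0.26, adjusted p = 0.000146), by 1.25 at day 7 (SE 0.28, adjusted p = 0.00101) and by 1.00 at day 21 (SE 0.20, adjusted p = 0.00263), so that its direction in these cells was opposite to that of the whole site at day 3. In stromal-like cells it did not pass at day 7 (−1.01, adjusted p = 0.0946) or day 21 (0.63, adjusted p = 0.45). In pericyte/smooth muscle-like cells it ranged from 48.5 to 115 CPM over the day 0 to day 21 libraries, and these cells held 23.2%, 19.8%, 31.5% and 44.5% of its UMIs at days 0, 3, 7 and 21, next to 43.2%, 28.7%, 30.2% and 23.2% in endothelial-like cells.

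In endothelial-like cells 6 of the 7 genes tested were called at day 3, 1 higher and 5 lower, where 58% of all genes tested were called. The day 3 sums came from 27, 28 and 27 cells. At day 7 all 7 genes tested were called, 2 higher and 5 lower, against 58.8% of all genes, and at day 21 7 of 8 were called, 3 higher and 4 lower, against 26.8% of all genes. The genes that did not enter these counts were those too low for the filter, namely Vegfa and Angpt1 throughout and Vegfb at days 3 and 7. Pgf at day 7 and Vegfb at day 21 passed the filter mainly through the injured libraries, where they were high. The filter thus helped to pick these rises, and the counts do not describe the members as a set. The 4 receptors were lower at all 3 days, and the ligands moved in both directions.

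Flt1, the decoy-like receptor of VEGF-A, was at 1406, 1466, 1375 and 1292 CPM in endothelial-like cells at day 0. It was at 333, 432 and 415 CPM at day 3, at 319, 261, 299 and 322 CPM at day 7 and at 712, 808, 744 and 582 CPM at day 21. Day 0 stood clear of the rest, with the day 21 libraries between day 0 and the earlier days. Flt1 fell by 1.70 at day 3 (SE 0.11, adjusted p = 2.16e-08), by 2.20 at day 7 (SE 0.09, adjusted p = 1.37e-11) and by 0.92 at day 21 (SE 0.10, adjusted p = 3.96e-05).

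Kdr, the main signalling receptor of VEGF-A, was at 519, 680, 668 and 678 CPM at day 0, where replicate 1 was the lowest. It was at 244, 211 and 222 CPM at day 3, at 358, 333, 389 and 319 CPM at day 7 and at 376, 492, 445 and 358 CPM at day 21. No library after injury reached the lowest day 0 library. Kdr fell by 1.38 at day 3 (SE 0.12, adjusted p = 2.91e-07), by 0.85 at day 7 (SE 0.10, adjusted p = 1.8e-06) and by 0.56 at day 21 (SE 0.12, adjusted p = 0.00327).

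Tek, the receptor of the angiopoietins, was at 254, 236, 255 and 288 CPM at day 0, at 96.0, 116 and 102 CPM at day 3, at 152, 129, 128 and 112 CPM at day 7 and at 184, 221, 198 and 192 CPM at day 21. The day 0 libraries were again the highest and no other group overlapped with them. Tek fell by 1.19 at day 3 (SE 0.13, adjusted p = 2.76e-06), by 0.97 at day 7 (SE 0.11, adjusted p = 8.75e-07) and by 0.34 at day 21 (SE 0.10, adjusted p = 0.0207), the last of which was lost without day 0 replicate 4 or day 21 replicate 1. Flt4, the receptor of VEGF-C, was at 32.7, 59.6, 47.9 and 41.2 CPM at day 0 and between 11.9 and 29.6 CPM in every library of days 3, 7 and 21. It fell by 1.29 at day 3 (SE 0.27), by 1.45 at day 7 (SE 0.19) and by 0.88 at day 21 (SE 0.21), with adjusted p-values of 0.00104, 5.51e-06 and 0.00657.

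**Figure D4:**
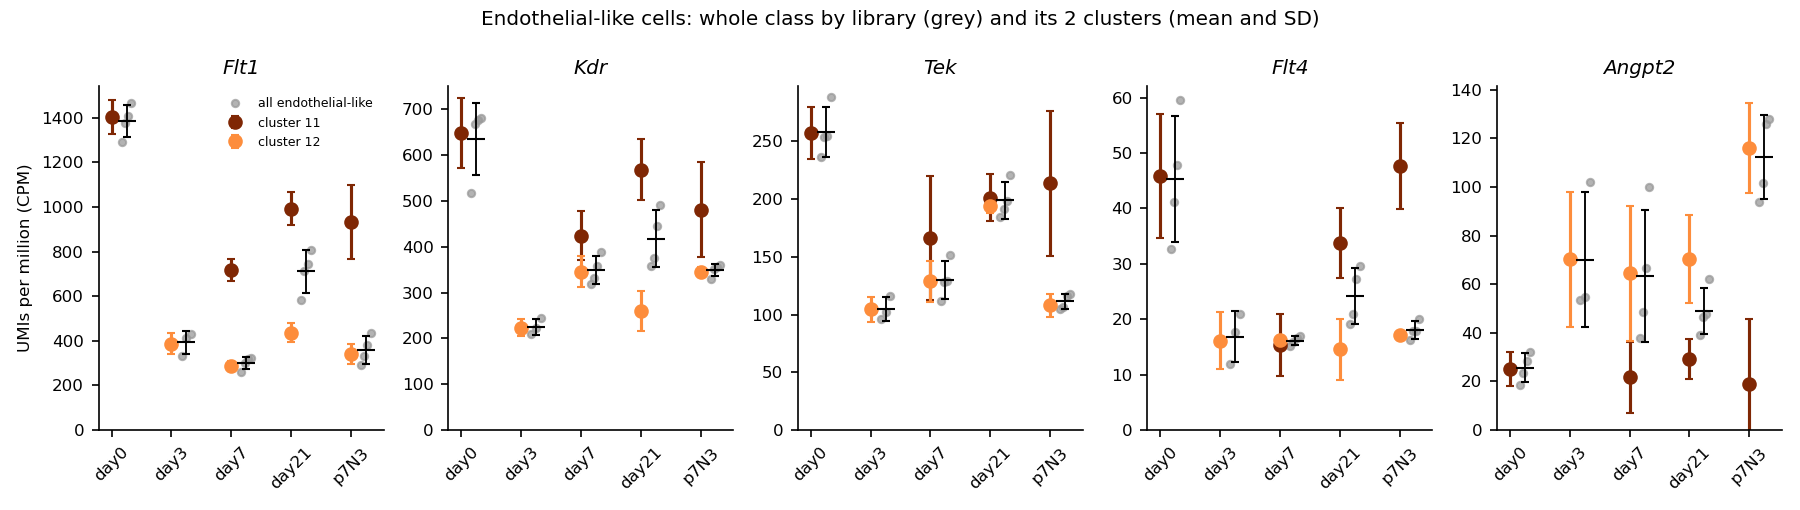
CPM of Flt1, Kdr, Tek, Flt4 and Angpt2 by group in all endothelial-like cells (grey points are libraries, black dashes and bars are means ± SD) and in clusters 11 and 12 (means ± SD over libraries, groups with at least 30 cells of the cluster), on linear axes from 0. The 4 receptors are highest at day 0 in the grey points, and for Flt1 the day 21 libraries, at 582 to 808 CPM, lie between day 0 and days 3 and 7.

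The endothelial-like cells of day 0 and of days 3 and 7 came mostly from different clusters. Cluster 11, led by Timp4, Tcf15, Aqp7 and Gpihbp1, genes of capillary endothelium, held 96.5% of endothelial-like cells at day 0 (SD 1.4, n = 4), 3.62% at day 3 (SD 3.6, n = 3), 7.75% at day 7 (SD 5.6, n = 4) and 57.8% at day 21 (SD 22.0, n = 4). Cluster 12, led by Fam167b, Selp, Plvap and Ackr1, with Aplnr and Apln also among its leading genes, held the remainder. Selp, Plvap and Ackr1 are genes of venular endothelium, whereas Apln is linked to sprouting tip cells, so the cluster was not given 1 identity. Flt1 pooled over libraries was 1401 CPM in cluster 11 at day 0 and 385 CPM in cluster 12 at day 3, and Kdr was 645 and 225 CPM. Granulocyte markers were also higher within the endothelial-like sums at day 3, at 1189 to 2010 CPM against 1.11 to 25.1 CPM at day 0 (5 of 5 markers with UMIs in both), and their part in the results was not tested.

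Only day 21 had enough cells of cluster 11 for a comparison with day 0 in every library, and it was added after the values had been seen. Of 7443 genes tested in it 7.82% were called. There Flt1 still fell, by 0.47 on the log2 scale (SE 0.08, adjusted p = 0.00139), from 1425 ± 74.9 CPM (SD, n = 4) to 1026 ± 75.5 CPM (SD, n = 4) after scaling by library factors. Vegfc rose by 1.08 (SE 0.25, adjusted p = 0.0124). Kdr (−0.16, adjusted p = 0.39), Flt4 (−0.38, adjusted p = 0.302), Tek (−0.33, adjusted p = 0.0642) and Angpt2 (0.26, adjusted p = 0.612) did not pass in that cluster. Angpt2 differed more between the clusters than between days, at 25.2 CPM in cluster 11 at day 0 and 29.9 CPM there at day 21, against 71.3 CPM in cluster 12 at day 3 and 66.7 CPM there at day 21, a description without a test.

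In stromal-like and monocyte/macrophage-like cells most receptor values were a small percentage of the endothelial-like level, and droplets also catch free RNA of other cells. Pooled over libraries, Flt1 in monocyte/macrophage-like cells was 1.03% of its endothelial-like level at day 0 and 0.365% at day 7, and Kdr in stromal-like cells was 0.775% at day 0 and 0.439% at day 7. Stromal-like Flt1 was called lower at each day (log2 fold change −2.45, −2.93 and −1.65) and stromal-like Kdr at day 7 (−1.66). Both passed the filter on low counts mainly through the day 0 libraries, where Flt1 was at 4.44 to 16.6 CPM and Kdr at 2.96 to 11.5 CPM. The Flt1 call at day 21 was lost without any of 5 libraries, day 0 replicates 1, 2 and 3 and day 21 replicates 1 and 4, and the Kdr call without day 0 replicate 2. Beside them, the 8 endothelial markers summed to a median of 620 CPM in stromal-like cells at day 0, 95.2 CPM at day 3 and 152 CPM at day 7. Their part in these falls was not tested.

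Tek in stromal-like cells was higher than that. It stood at 87.5, 90.8, 87.8 and 120 CPM at day 0, which pooled was 36.7% of the endothelial-like level, whereas monocyte/macrophage-like cells held 2.75%. It was at 1.74, 4.29 and 2.42 CPM at day 3, at 28.9, 15.0, 18.5 and 10.1 CPM at day 7 and at 22.8, 26.3, 39.8 and 13.3 CPM at day 21. Every library after injury was far below day 0. Tek fell by 4.93 at day 3 (SE 0.23, adjusted p = 1e-09), by 2.39 at day 7 (SE 0.25, adjusted p = 3.08e-06) and by 1.94 at day 21 (SE 0.25, adjusted p = 6.17e-05).

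Stromal-like Tek sat in 2 clusters. It was 106 CPM in cluster 13 and 88.2 CPM in cluster 15 at day 0, and 2.80 CPM in cluster 17, which held most stromal-like cells at day 3. At day 7 clusters 6 and 10, led by Gzme and Crabp1, held 863 and 750 cells with Tek at 9.94 and 2.38 CPM. Within cluster 13 Tek was 106 ± 49.5 CPM (SD, n = 4) at day 7 against 109 ± 14.4 CPM (SD, n = 4) at day 0, a log2 fold change of 0.17 (SE 0.23, adjusted p = 0.703), and at day 21 it was lower by 0.60 (SE 0.16, adjusted p = 0.0365). The fall of Tek over all stromal-like cells at day 7 was thus not seen within that cluster, whose 832 cells at day 0 had become 133 at day 7.

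In stromal-like cells 5 of the 7 genes tested were called at day 3, all lower, where 66.1% of all genes were called and 32.9% were called lower. At day 7, 6 of 9 were called, 1 higher and 5 lower, against 51.3% of all genes, and at day 21, 5 of 8 were called, 1 higher and 4 lower, against 32.8%. The lower genes include Flt1, and at day 7 Kdr, which passed the filter on low counts mainly through the day 0 libraries, where they were high. These stromal-like counts therefore do not describe the members as a set. In monocyte/macrophage-like cells only Vegfa was tested at day 3 and it was called, against 52.6% of all genes. At day 7, 3 of 4 were called, 1 higher and 2 lower, against 35.3%, and at day 21, 1 of 2, against 26%. Vegfa was low in every day 0 library and passed the filter on low counts through the injured libraries. The 2 lower ones at day 7 were Kdr (−1.95) and Tek (−2.65), both from 10 or fewer UMIs per day 0 library, both lost without day 0 replicate 1 and neither tested when any day 7 library was left out. Kdr and Tek passed the filter through the day 0 libraries. The filter thus picked these genes for the group where they were high, and the counts do not describe the members as a set. Ptprb, a phosphatase of endothelium, was lower in monocyte/macrophage-like cells at day 3 by 5.50 and in stromal-like cells by 5.77. Over all 19 libraries it was at 27.0 ± 50.8 CPM (SD) and 29.6 ± 62.6 CPM (SD) in these types after scaling by library factors. It may have passed the filter on low counts mainly through the day 0 libraries. The part of endothelial RNA caught with these cells was not tested.

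Flt1 was also found in pericyte/smooth muscle-like cells, a type without a test of its own here. It was at 25.5, 43.9, 12.2 and 13.5 CPM at day 0, at 89.6, 85.8 and 101 CPM at day 3, at 56.1, 79.9, 51.2 and 87.1 CPM at day 7 and at 80.5, 99.9, 69.8 and 77.5 CPM at day 21. Every library after injury was above every day 0 library, the opposite order to the endothelial-like cells. The Rgs5-led cluster 14 held Flt1 at 110 CPM at day 3 and the Myh11-led cluster 19 held it at 15.6 CPM at day 0, and at day 0 this type was mainly cluster 19, with 143 cells against 38. Kdr in the same cells was at 0 to 12.8 CPM at day 0 and 0 to 4.98 CPM afterwards. The cluster led by Fabp4, which was left without a name, held Flt1 at a mean of 1060 CPM at day 0 and 647 CPM at day 21. In the lymphatic endothelial-like cells, few in number, Flt4 was at 388, 280, 280 and 426 CPM at day 7 and at 472, 633, 403 and 366 CPM at day 21, with Angpt2 at 119 to 228 CPM at day 7.

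Whether p7N3 altered these genes was asked against the day 7 libraries. With edgeR none of the 10 genes was called over the whole site, where 0% of all 14882 genes were called, and none of 9 in endothelial-like cells, where 0% of genes were called. None of 10 was called in stromal-like cells, where 0.0313% of all genes were, and none of 6 in monocyte/macrophage-like cells, where 0% were. At an unadjusted p below 0.05 edgeR gave 3 members over the whole site (Vegfb, Pgf and Angpt2), 2 in endothelial-like cells (Angpt2 and Tek), 1 in stromal-like cells (Vegfb) and 2 in monocyte/macrophage-like cells (Vegfb and Pgf), beside 12.3%, 8.16%, 15.1% and 7.91% of all genes. DESeq2 called 1 member in each of the first 3 and none in the last, beside 0.935%, 0.0728%, 1.3% and 0.192% of all genes. None of 9 was called in the test of whether the p7N3 change differed between stromal-like and monocyte/macrophage-like cells, where 0.0154% of all genes were, and the differences ran from −1.28 for Pgf and −1.06 for Tek through −0.73 for Flt1, −0.64 for Kdr, −0.43 for Angpt2, −0.12 for Vegfb, 0.11 for Vegfa and 0.21 for Angpt1 to 0.54 for Vegfc on the log2 scale.

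Angpt2 had the largest p7N3 difference of the 9 members tested in endothelial-like cells. It was at 93.7, 126, 128 and 102 CPM in the p7N3 libraries and at 38.0, 66.8, 48.4 and 99.9 CPM at day 7. The lowest p7N3 library lay below the highest day 7 library and the other 3 p7N3 libraries lay above all day 7 libraries. The log2 fold change was 0.87 (SE 0.22), with an adjusted p of 0.334 by edgeR and 0.0412 by DESeq2. Within cluster 12, where edgeR called 0% of genes, it was 0.88 (SE 0.22, adjusted p = 0.251). Over the whole site Angpt2 was at 12.3, 13.8, 16.5 and 14.4 CPM with p7N3 and 10.5, 10.9, 10.5 and 8.21 CPM at day 7, without overlap, a log2 fold change of 0.51 (SE 0.12) with an adjusted p of 0.267 by edgeR and 0.0282 by DESeq2.

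Vegfb in stromal-like cells was at 15.7, 13.7, 12.9 and 14.0 CPM with p7N3 and at 19.3, 18.4, 19 and 20 CPM at day 7, without overlap, a log2 fold change of −0.45 (SE 0.09) with an adjusted p of 0.13 by edgeR and 0.0413 by DESeq2. Vegfa did not pass in stromal-like or monocyte/macrophage-like cells, with log2 fold changes of 0.37 (SE 0.20, adjusted p = 0.418) in stromal-like cells and 0.18 (SE 0.20, adjusted p = 0.855) in monocyte/macrophage-like cells. In endothelial-like cells the log2 fold changes of the receptors were 0.24 for Flt1 (SE 0.12), −0.02 for Kdr (SE 0.09), 0.13 for Flt4 (SE 0.16) and −0.25 for Tek (SE 0.11), and none passed. Those of the ligands there were −0.10 for Vegfa, −0.31 for Vegfb, −0.43 for Vegfc and −0.44 for Pgf, with adjusted p from 0.732 to 0.975. The endothelial-like share of cells was 0.526 percentage points higher with p7N3 (4.89% against 4.36%, exact permutation test over libraries, two-sided p = 0.6857).

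The other members did not pass either. Over the whole site the log2 fold changes with p7N3 were 0.28 for Vegfa, −0.31 for Vegfb, 0.04 for Vegfc, 0.42 for Pgf and 0.04 for Angpt1 among the ligands, and 0.11 for Kdr, 0.53 for Flt1, −0.26 for Flt4 and −0.17 for Tek among the receptors. In stromal-like cells they were 0.13 for Vegfc, 0.40 for Pgf, −0.16 for Angpt1, −0.52 for Angpt2, −0.16 for Kdr, 0.30 for Flt1, −0.03 for Flt4 and −0.51 for Tek. In monocyte/macrophage-like cells they were −0.36 for Vegfb, 1.75 for Pgf, −0.03 for Angpt2, 0.47 for Kdr and 0.89 for Flt1. By edgeR their adjusted p ran from 0.261 to 0.987.

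**Figure D5:**
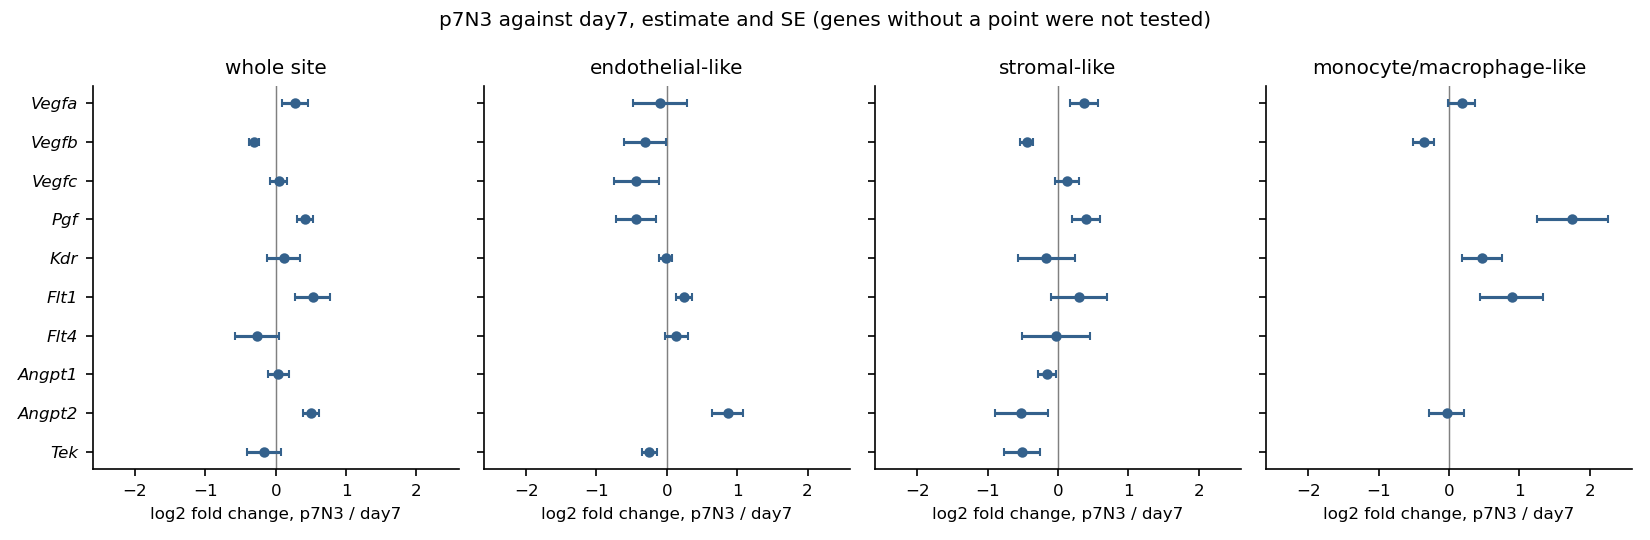
Log2 fold change of p7N3 against day 7 for each member (points are edgeR estimates, bars are SE) over the whole site and in 3 cell types, where a gene without a point was not tested. Endothelial-like Angpt2 is at 0.87 and stromal-like Vegfb at −0.45, and no member passed the test.

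The partners of the pathway, taken as lists of 9 symbols each, moved as follows in endothelial-like cells. In the list of ligand and receptor partners Vegfd and Figf are symbols of the same gene, and only Figf was in the files. The lists were tested over whole cell types and not within a cluster. A change of the clusters that make up a type and a change within its cells therefore cannot be told apart here. Of the ligand and receptor partners 8 were in the files and 4 were tested, and at day 3 all 4 were lower, led by Ptprb (log2 fold change −2.49, adjusted p = 2.62e-09) and the co-receptor Nrp1 (−2.28, adjusted p = 1.79e-09), where 58% of all genes tested were called. At days 7 and 21, 3 of the 4 were lower and none higher, Ptprb (−2.31 and −0.77) and Nrp1 (−1.83 and −0.73) leading, beside 58.8% and 26.8% of all genes called. The median of the 4 went from −1.51 at day 3 to −1.13 and −0.55. The remaining partners of that list were too low in these cells for the filter.

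Of the endothelial response genes, 8 were tested at day 3, with 3 higher and 2 lower, again beside 58% of all genes called. Kcne3 (3.37) and Apln (2.34) rose, and Klf2 (−2.23) and the Notch ligand Dll4 (−1.47) fell. Kcne3 was too low for the filter in the comparisons of endothelial-like with other cell types. At day 3 it may have passed only through the libraries where it was high, which held few endothelial-like cells. Apln is also a leading gene of cluster 12, which held 3.5% of endothelial-like cells at day 0 and 96.4% at day 3 (means over libraries). At day 7, with 58.8% of all genes called, 5 of 7 were higher and 2 lower, led by Apln (2.21) and Esm1 (1.92) on the upper side and Klf2 (−1.52) and Dll4 (−1.20) on the lower. At day 21, with 26.8% called, 4 of 7 were higher, led by Rcan1 (2.26) and Apln (1.70), and 1 was lower, Klf2 (−0.59).

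Of the hypoxia genes, 4 of 8 rose at day 3 in endothelial-like cells and 1 fell, with 58% of all genes called. Pgk1 (2.71), a glycolytic enzyme, and Hif1a (1.94), the oxygen-regulated transcription factor, were the largest, and its relative Epas1 fell (−1.68). At day 7 they counted 4 higher, led by Hif1a (1.90) and Pgk1 (1.08), and 2 lower, Epas1 (−1.85) and Bnip3 (−1.06), with 58.8% of all genes called. At day 21 they counted 3 higher, led by Hif1a (1.62) and Slc2a1 (0.97), and 1 lower, Epas1 (−0.56), with 26.8% called. In stromal-like cells at day 3, 6 of 8 rose, led by Pgk1 (3.05) and Hif1a (2.43), and 2 fell, Adm (−1.06) and Epas1 (−1.01), with 66.1% of all genes called, while Vegfa itself fell there. In monocyte/macrophage-like cells at day 3 all 5 that were tested rose, led again by Pgk1 (2.76) and Hif1a (2.22), as Vegfa did, with 52.6% of all genes called. None of the 3 lists had a gene called by edgeR between p7N3 and day 7 over the whole site or in any of the 3 cell types tested.

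The genes most like each member were sought over 52 points, each the mean of a cell type in a group with at least 50 cells, among 11316 genes. The points share libraries, depth and clustering, so the values of Pearson's r on log2(CPM + 1) are a description. Kdr was most like Cdh5 (0.942), Sox7 and Nos3, Flt1 most like Fabp4 (0.956), Tcf15 and Adgrf5, and Tek most like Ramp2 (0.937), Hspa12b and Shank3. Flt4 was most like Klhl4 (0.957), Rassf9 and Cldn5. Cdh5, Ramp2 and Cldn5 are among the markers by which the endothelial-like cells were named. Angpt2 was most like Gja4 (0.889), Apold1 and Acy3, and Angpt1 most like Podn (0.858), Slit3 and Tbx15. The other ligands were less alike to any gene, with the best value at 0.846 for Vegfb (Cyp20a1), 0.763 for Vegfc (Smco4), 0.679 for Vegfa (Ikbke) and 0.640 for Pgf (Stam2).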

How the data were processed

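Single-cell libraries (10x droplets, mouse tendon-cut site) were deposited by the authors as raw UMI counts per gene and cell barcode. The study's methods name Cell Ranger and the mouse reference, the labels name GRCh38 without a version of Cell Ranger or Seurat, and the gene identifiers are those of mouse. Members and lists were chosen with earlier results of these data known. A cell was a barcode with 500 or more genes whose mitochondrial UMIs did not exceed 25%. Cells were clustered with scanpy 1.11.5 (2000 variable genes, 30 principal components, 20 neighbours, Leiden resolution 0.8, 36 genes left out, the 10 members and their pathway lists), which gave 35 clusters. These were named from 88 markers (87 in the files), with limits on naming set after marker values, but not member values, had been seen. Doublets were scored with Scrublet and kept, and removal of the top 3.9% of scores was an alternative. Counts were summed per library and cell type (at least 10 cells) and tested with edgeR 4.0.16 in R 4.3.3 (TMM factors, filterByExpr, quasi-likelihood F test, Benjamini-Hochberg over all genes tested, adjusted p below 0.05), with the library as a block between cell types. SE is the absolute log2 fold change divided by the square root of F. DESeq2 1.42.0 was an alternative. Shares of cells were compared by an exact permutation test (scipy 1.17.1). A count of 3 served as the limit where no UMI was seen. Counting limits cover counting error only. The depth was 3019467 to 39870492 UMIs per library. The rule for names was every member tested and, of each pathway list, the 2 genes with the largest called change in each direction. For the lists, the text gives these genes in endothelial-like cells, and of the other 2 types only the hypoxia genes and Ptprb at day 3. Figf was named outside this rule, between cell types. For likeness, genes with at least 20 CPM in a point were compared. On simulated counts with 200 genes changed by 2-fold, the tests between groups were checked and recovered 43.5% (monocyte/macrophage-like cells, day 7 against day 0) to 82.5% (monocyte/macrophage-like cells, p7N3 against day 7). Of the genes called in these simulations, 2.11% (whole site, day 7 against day 0) to 9.38% (stromal-like cells, p7N3 against day 7) had not been changed, so the share could exceed the limit of 0.05. Replicate numbers did not pair the libraries.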

Additional observations from a re-analysis of the deposited data

Results flagged for a closer look

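Groups of 4 libraries were searched for a library far from the rest by Dixon's criterion, over 135 groups with at least 20 UMIs, and chance alone marks about 1 in 20 groups. Kdr in endothelial-like cells was 519 CPM in day 0 replicate 1 against 668 to 680 CPM in the other 3. Tek in stromal-like cells was 120 CPM in day 0 replicate 4 against 87.5 to 90.8 CPM. Vegfa in monocyte/macrophage-like cells was 64.0 CPM in day 21 replicate 3 against 13.7 to 16.2 CPM, and Vegfb was 24.2 CPM in day 21 replicate 2 against 17.0 to 18.0 CPM. Pgf in monocyte/macrophage-like cells was 11.5 CPM in p7N3 replicate 1 against 2.68 to 4.08 CPM. Over the whole site at day 7, Angpt1 was 5.77 CPM in replicate 2 against 9.07 to 9.33 CPM, Angpt2 was 8.21 CPM in replicate 4 against 10.5 to 10.9 CPM, Flt1 was 32.1 CPM in replicate 1 against 16.3 to 18.4 CPM and Flt4 was 2.63 CPM in replicate 4 against 6.26 to 6.82 CPM.

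The change from day 0 to day 3 differed between stromal-like and monocyte/macrophage-like cells by the edgeR interaction test for Vegfa (log2 difference −4.35), Pgf (−4.93) and Tek (−2.24). Pgf and Tek were low in monocyte/macrophage-like cells, and only for Vegfa were opposite directions called. In monocyte/macrophage-like cells Vegfa passed the filter on low counts through the injured libraries, where it was high.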

How the results depend on the processing

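Of the values for single genes under the alternatives, 2269 kept their side of the threshold, 56 no longer passed, 28 newly passed and 5 changed sign. A change of sign was counted only where the gene passed in the main fit or in the alternative. Where it passed in neither, the direction was not compared. The 5 were, in the day 0 libraries alone, Pgf between endothelial-like and stromal-like cells (−2.47) and Vegfa (3.42) and Vegfb (−0.0548) between stromal-like and monocyte/macrophage-like cells, and, in cluster 13 alone, Tek at day 7 (0.17) and Vegfb at day 21 (−0.0171) against day 0 in stromal-like cells. The cause was not tested.

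The number of members called changed by more than 1.5 times in these cases, and by 1 or 2 members in others. Apart from DESeq2 and the single clusters, the numbers here and below stand without the share of all genes called under the same setting. They show how the number depends on the setting and are no result about the members. DESeq2 called 1 member for p7N3 over the whole site (Angpt2), 1 in endothelial-like cells (Angpt2) and 1 in stromal-like cells (Vegfb). With no filter on low counts the number was 1 for p7N3 in endothelial-like cells, 8 in stromal-like cells at day 3, and 6 and 5 in monocyte/macrophage-like cells at days 3 and 7. A single fit of all 5 groups gave 8 in stromal-like cells at day 3 and 6, 5 and 0 in monocyte/macrophage-like cells at days 3, 7 and 21. Asking for 10 UMIs in every library gave 0 in monocyte/macrophage-like cells at days 3, 7 and 21, since fewer genes were then tested, and a Leiden resolution of 2 gave 1 and 0 at days 7 and 21. Stromal-like against monocyte/macrophage-like cells gave 4 in the day 0 libraries alone. Single clusters, added after the data were seen, gave 2 in cluster 11 at day 21, 1 and 2 in cluster 13 at days 7 and 21, and 0 and 0 in cluster 9 at days 7 and 21, where 0 members were tested. Over all genes these fits called 582 of 7443, 794 of 5843 and 342 of 7204, and 1146 and 585.

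Leaving out each library in turn gave 6 to 8, 6 to 8 and 6 to 7 members over the whole site at days 3, 7 and 21, 6 to 7, 7 to 7 and 5 to 7 in endothelial-like cells, 4 to 8, 4 to 7 and 4 to 5 in stromal-like cells and 1 to 6, 1 to 4 and 0 to 1 in monocyte/macrophage-like cells, with 0 for p7N3 throughout. With a replicate block the numbers were 8, 6, 6 and 0 over the whole site (days 3, 7, 21 and p7N3), 6, 7, 7 and 0 in endothelial-like, 5, 6, 5 and 0 in stromal-like and 1, 3, 1 and 0 in monocyte/macrophage-like cells. The same replicate numbers correlated at −0.157 to 0.141, so they did not pair the libraries. With the block, Vegfa (0.34, adjusted p = 0.0452) and Angpt1 (−0.61, adjusted p = 0.0399) over the whole site at day 3 and Angpt2 in stromal-like cells at day 7 (−1.10, adjusted p = 0.0348) passed, and Angpt2 over the whole site at day 3 (adjusted p = 0.0675) and Vegfb in stromal-like cells at day 7 (adjusted p = 0.056) did not.

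The depth of day 0 limits low genes, such as Vegfa in monocyte/macrophage-like cells (1 to 4 UMIs a library).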
